A study of Homo sapiens with 6 samples.

Results

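The transcripts compared here are those of WM-266.4 cells, a human line from a metastatic melanoma, after siRNA against PIR (siPIR) and after non-targeting siRNA (siCTR). The rule took the 4 of the 6 arrays of the series that carry these pools, and kept each gene with a siPIR or siCTR pool mean above 458.4 signal units, the 75th percentile of all values. Of 19775 genes with a probe set of their own, 8160 (41.3%) were bright in this sense, 435 of them differed between the pools, and 261 of those 435 were assigned to functions other than cell division. Each siRNA reagent was a mixture of 4 duplexes, given as 200 pmol with the lipid Oligofectamine 24 h after seeding, and cells were collected 72 h later. A further group, NO, received the lipid alone and is given beside the values as a second control. RNA of 3 extractions was combined for each group and hybridised to 2 Affymetrix HG-U133 Plus 2 arrays, so a group is 1 RNA pool and its 2 arrays are repeat hybridisations. No test of the conditions can be made with 1 pool per group, and no p-value, SD or n above 1 stands behind any difference. The whole comparison rests on 1 cell line and 1 mixture of duplexes, so the loss of PIR, other effects of those duplexes and differences between separately prepared pools cannot be told apart.

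PIR encodes pirin, a small iron-binding protein of the cupin family found in the nucleus and the cytoplasm. It is known as a partner of the NFI transcription factors and of BCL3, a co-regulator of NF-kB, and its binding to the latter depends on the state of its iron. In melanoma it has been described in connection with migration and with the avoidance of senescence. The function classes below are ordered from the cell surface inwards, with cell division last.

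Signals were on the linear scale of the array software, and the array medians lay between 64.2 and 74.8 units. Across bright genes, which are not independent replicates, duplicate arrays correlated at r of 0.992 to 0.994 and siPIR with siCTR arrays at 0.936 to 0.940. Duplicates of a pool differed by a median of 0.09 (siPIR) and 0.08 (siCTR) on the log2 scale, and by 2-fold or more for 3 and 6 of the bright genes. The 3' to 5' signal ratio of ACTB was 1.13 on each siPIR array and 1.23 and 1.26 on the siCTR arrays, and that of GAPDH 0.904 and 0.908 against 0.919 and 0.948; the part of RNA quality in the results was not tested. The melanoma markers matched the labelled cell type, with 7 of 7 measured members bright at 5692 to 40133 units and summed levels of 101359 and 103249 (siPIR) against 95250 and 100933 (siCTR). None of 6 leukocyte and 7 endothelial markers was bright, and of 6 keratinocyte markers KRT10 alone was. In bulk RNA of this kind, fewer cells of a type and less RNA per cell cannot be told apart.

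PIR itself read 392 and 382 units with siPIR, 13544 and 13179.9 with siCTR and 13990.2 and 14153 in NO. Both siPIR arrays lay far below all 4 control arrays, which did not overlap them, and the log2 difference from siCTR was -5.09 (pairs of single arrays gave -5.13 to -5.05), which is 34.1-fold lower. Ranges after other genes are likewise over the 4 pairings of a siPIR with a siCTR array. Differences are of pool means of log2(signal + 5.4). A call needed a difference of 1 or more (2-fold) with no overlap between the arrays of the pools. By this rule 113 bright genes were higher with siPIR (1.38% of 8160) and 322 were lower (3.95%), 5.33% in either direction. At such a share a small list can hold no call, so a lack of calls in it says little. The median over all bright genes was 0.03, with a 5th percentile of -0.88 and a 95th of 0.68. Higher genes had a median of 1.18, with 81 of 113 below 2.5-fold and 4 at 4-fold or more. Lower genes outside cell division had a median of -1.24, with 89 of 148 below 2.5-fold and 12 at 4-fold or more.

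The limits chose the members, so the genes at their edges are given as a description. IGFBP4 lay just inside on the higher side (1.01) with MBOAT7 just outside (0.9996), and SCD lay just inside on the lower side (-1.0014) with CENPQ just outside (-0.9952). NCOA5 was the dimmest called gene, at 459 units in its brighter pool, and PCAT6, at 450.3 units and a difference of 1.23, fell short of the brightness limit. A bright gene needs only 1 bright pool: 55 of the 113 higher genes were below the limit with siCTR, so their fold changes rest on a dimmer control pool. Among the 7331 genes bright in both pools, 58 were higher (0.791%) and 189 lower (2.58%).

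**Figure D1:**
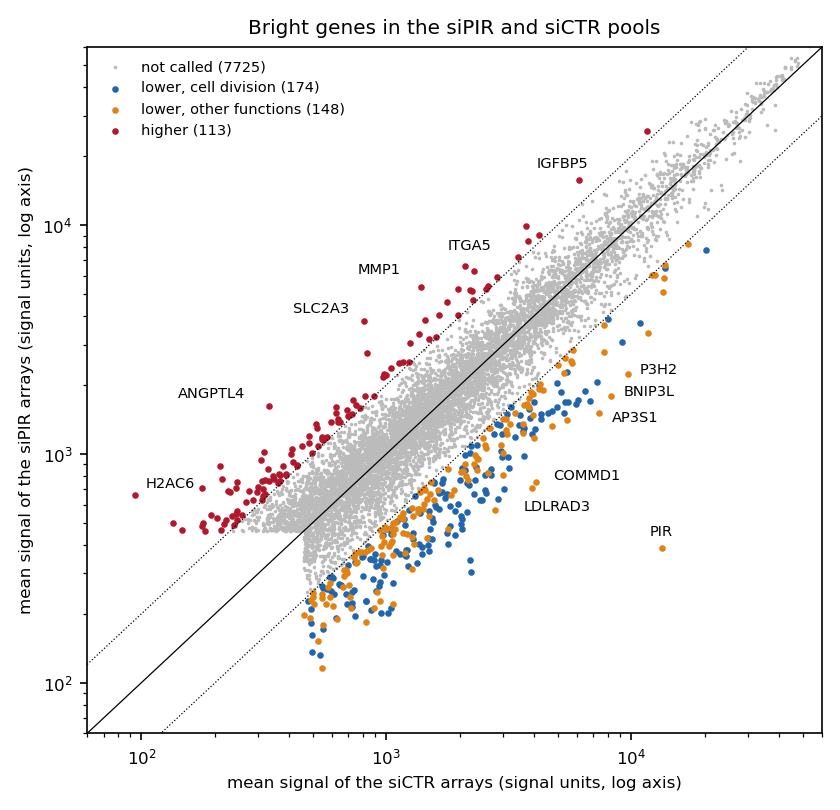
Mean signal of the 2 siPIR arrays (vertical) against the 2 siCTR arrays (horizontal) for 8160 bright genes, both axes logarithmic; the solid line marks equality and the dotted lines a 2-fold difference. PIR stands alone below the field at a 34.1-fold lower level, with 113 higher genes above the upper dotted line and 322 lower genes below the other.

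Against NO, the same 8160 genes gave 178 higher (2.18%) and 340 lower (4.17%) with siPIR, 6.35% in all. Between the control pools 2 were higher in siCTR (0.0245%) and 3 lower (0.0368%), and these 5 (0.0613%) were BLZF1, COX3, DECR2, PIK3C2B and ST8SIA5. The siPIR pool enters both of the first comparisons, so they are not independent, and values against NO are given beside some single genes below. Not every gene called against siCTR reached 2-fold against NO. Examples were MSMO1 (-0.84 from NO), FZD7 (-0.64), CDK2 (-0.64), LBR (-0.57) and NRCAM (0.79). For 8 of the 435 called genes the NO level lay nearer to siPIR than to siCTR. These were FAM149A (-1.32 from siCTR and -0.54 from NO), MT1F (-1.22 from siCTR and -0.55 from NO), CPT1C (1.15 from siCTR and 0.57 from NO), S100A6 (1.16 from siCTR and 0.56 from NO), URB1-AS1 (1.24 from siCTR and 0.43 from NO), RASEF (1.30 from siCTR and 0.52 from NO), FCGRT (1.46 from siCTR and 0.51 from NO) and BAIAP2-DT (1.52 and 0.69), named here because of this property. As a mean over probe sets FAM149A, MT1F, RASEF and S100A6 were at -0.90, -0.95, 0.59 and 0.84, CPT1C was at 0.86 without siPIR replicate 2, and BAIAP2-DT was at 0.12 without siPIR replicate 1 and turned to -0.076 without siPIR replicate 2.

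Each called gene was assigned by hand to 1 of 20 function classes (pirin being a class of its own) after the calls were known, so the class counts describe these calls and test nothing. Cell division, replication and repair took 174 of the 322 lower genes (54.0%) and 0 of the 113 higher ones. The 0 depends on assignment: CDKN1A, a cell cycle inhibitor that was higher (1.10), was placed with stress and p53 genes. Its relative CDKN1C, which was lower (-1.68), was placed in cell division. Of the remaining classes, adhesion and guidance held 14 higher and 4 lower genes, and matrix, proteases and inhibitors 10 and 5. The balance was the other way in RNA processing (0 higher, 15 lower), sterol and lipid metabolism (4 and 16), transcription (3 and 14), and glycan synthesis (2 and 9). Growth factor and Wnt signalling (14 and 11) and vesicle trafficking (10 and 12) held similar numbers of each.

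**Figure D2:**
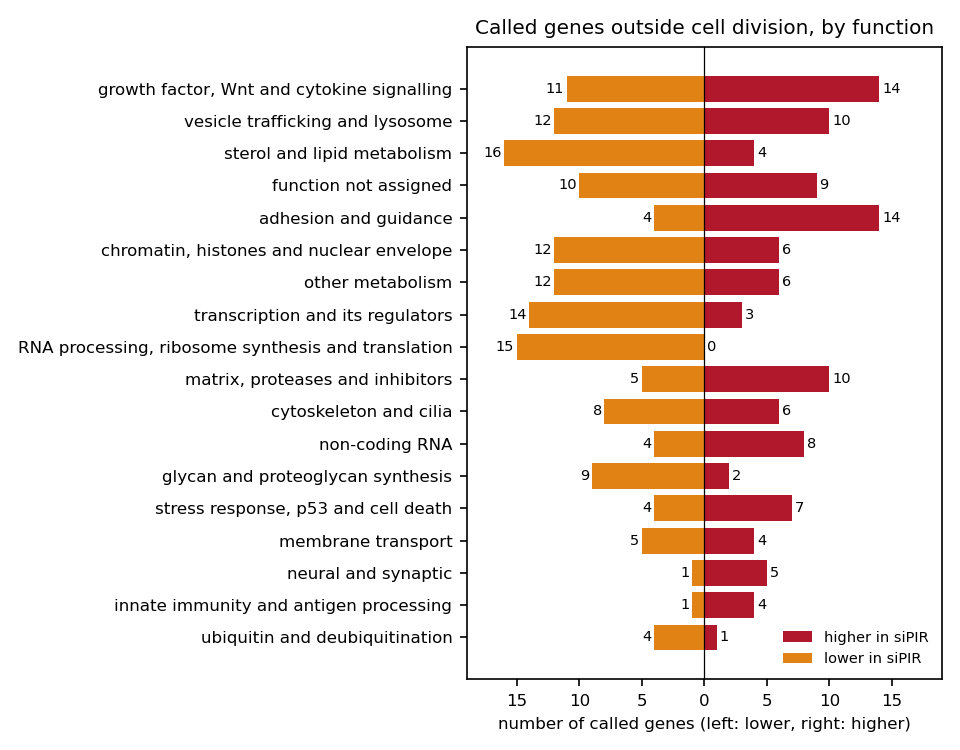
Number of called genes in each function class outside cell division, with lower genes to the left and higher genes to the right of 0. Adhesion and guidance (14 higher, 4 lower) and matrix and proteases (10 and 5) lean to the right, while RNA processing (0 and 15) and sterol and lipid metabolism (4 and 16) lean to the left.

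The largest differences outside cell division came from unrelated functions. The highest were the histone gene H2AC6 (2.76), the lipase inhibitor ANGPTL4 (2.24), the glucose transporter SLC2A3 (2.22) and the axonemal dynein gene DNAI3 (2.06). After PIR, the lowest were the receptor-like gene LDLRAD3 (-2.46), the endosomal sorting factor COMMD1 (-2.43), the adaptor subunit AP3S1 (-2.29) and UXS1, which makes UDP-xylose (-2.29). LDLRAD3, a transmembrane protein with LDL receptor repeats, read 769.7 and 652 units with siPIR, 4017 and 3822 with siCTR and 4087 and 4038 in NO. DNAI3 read 929 and 849 units with siPIR, 229 and 190.3 with siCTR and 294 and 294 in NO. In both genes the siPIR arrays lay apart from all 4 control arrays, while siCTR and NO differed by -0.05 for LDLRAD3 and -0.48 for DNAI3.

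**Figure D3:**
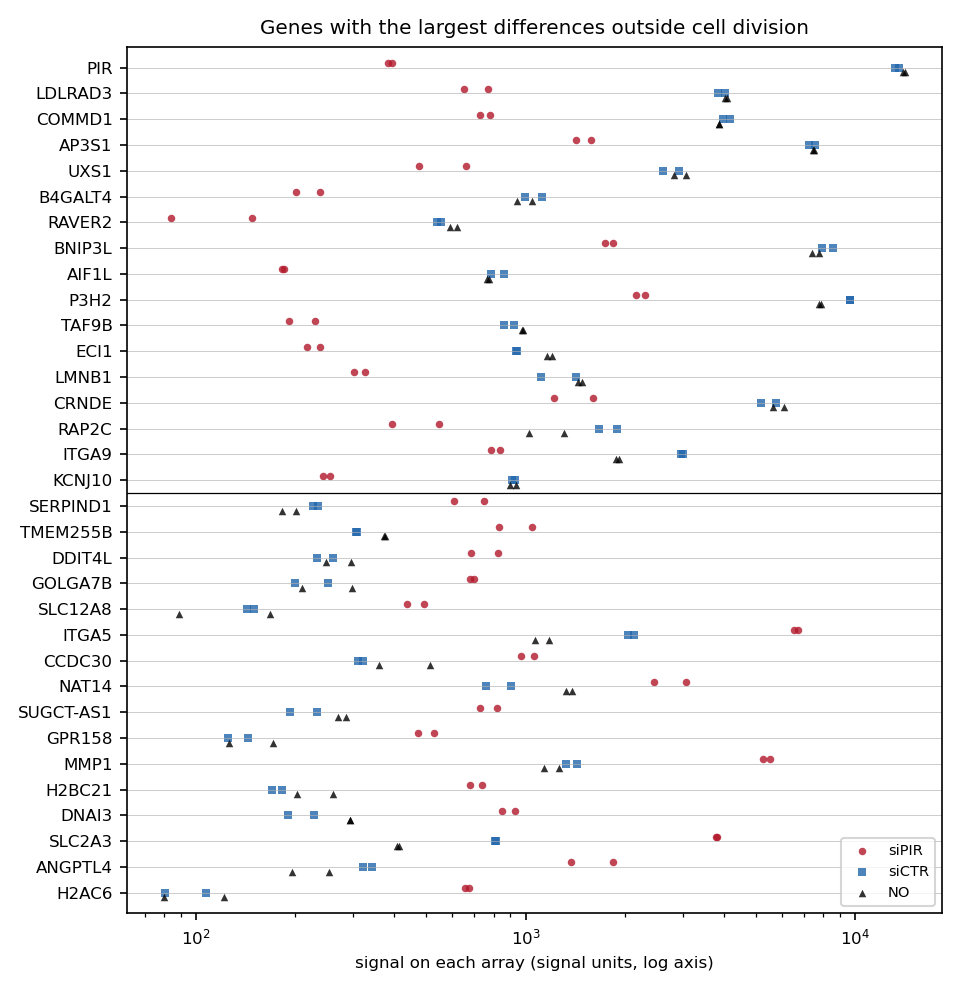
Signal on each of the 6 arrays (log axis) for PIR, the 16 lowest and the 16 highest called genes outside cell division; circles are siPIR, squares siCTR and triangles NO. In all 33 genes both siPIR arrays lie apart from both siCTR arrays, as a call requires. Single arrays read 382 against 13180 units for PIR and 654 against 107 for H2AC6, siPIR against siCTR.

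Proteases of the cell surface and matrix were among the higher genes. MMP1, the interstitial collagenase, read 5236 and 5508 units with siPIR, 1328 and 1428 with siCTR and 1135 and 1267 in NO, a difference of 1.96 (1.87 to 2.05). MMP14, the membrane-bound protease that activates other metalloproteinases, read 7009.6 and 7524 units with siPIR, 3362 and 3556 with siCTR and 2799 and 2785 in NO (1.07). PLAUR, the receptor that holds urokinase at the surface, read 3046 and 3043 units with siPIR, 1265 and 1236 with siCTR and 802 and 800.3 in NO (1.28). For all 3 the siPIR arrays lay above every control array, and PLAUR stood higher in siCTR than in NO as well (0.64). FURIN, a convertase that trims many secreted precursors, was higher by 1.23 (885 and 893 against 363 and 391 units, siPIR against siCTR), and CEMIP, which breaks down hyaluronan, by 1.31 (4096 and 4023 against 1556 and 1715). PLAUR differed by 0.61 and CEMIP by 0.78 when probe sets that may bind several transcripts were left out, which ends both calls. MMP17 (1.11) was below 2-fold (0.61) without siCTR replicate 2.

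The other higher genes of this class were the thrombin inhibitor SERPIND1 (1.53; 750.0 and 608 against 227 and 234 units), the secreted LRRC17 (1.38), the laminin chain LAMB3 (1.21) and the serine protease relative PRSS35 (1.15). In the list of matrix proteases, inhibitors of metalloproteinases and the urokinase system, 4 of 23 bright members were higher and 0 lower, with a median of 0.27 against 0.03 for all bright genes. As a mean over probe sets the list's median was 0.059. The 19 that were not called ran from -0.45 (MMP16) to 0.88 (ADAMTS1), and the inhibitors TIMP1, TIMP2 and TIMP3 were at 0.41, -0.15 and 0.38. Among the collagens, laminins and matrix glycoproteins 1 of 28 was higher and 0 lower (median 0.23). A pair of genes that modify collagen as it is made were lower. P3H2, a prolyl 3-hydroxylase, read 2159 and 2306 units with siPIR, 9668 and 9619 with siCTR and 7898 and 7786 in NO (-2.11), and the prolyl isomerase FKBP14 differed by -1.28. The siPIR arrays of P3H2 lay below the rest, but the call ended at -0.67 without probe sets that may bind several transcripts, and the 3 other bright members of its family were at 0.02 to 0.48. Beside these matrix genes, fibroblast markers had a higher summed level with siPIR: of 8 with a probe set, COL1A2 (0.64) and FAP (0.92) were bright, COL1A1, LUM, DCN, THY1, PDGFRA and PDGFRB were not, and the sums were 29055 and 30668 (siPIR) against 17879 and 19269 (siCTR). Their part in the result was not tested.

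Of 12 bright integrin subunits, receptors for matrix among them, 1 was higher and 1 lower. ITGA5, the alpha chain of the fibronectin receptor, read 6702 and 6501 units with siPIR, 2128 and 2041 with siCTR and 1176 and 1071 in NO, a difference of 1.66 (1.61 to 1.71). Its 3 groups were ordered without overlap, and siCTR exceeded NO by 0.89. ITGA9, the alpha chain of a receptor for tenascin-C and other ligands, went the opposite way at 838 and 786 units with siPIR, 2969.6 and 3009 with siCTR and 1916 and 1875 in NO (-1.87), although the mean over its probe sets was -0.57. The 10 other bright integrin subunits, alpha and beta, were not called and ran from -0.54 (ITGA2) to 0.72 (ITGA3), with the shared beta chain ITGB1 at 0.15.

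Semaphorins are guidance ligands that act through plexins, with neuropilins as co-receptors. SEMA3C read 9686 and 10067 units with siPIR, 3769 and 3668 with siCTR and 3098 and 3265 in NO (1.41), and SEMA3A differed by 1.12 (891 and 722 against 378 and 357 units; 0.97 without siPIR replicate 1). Of the receptors, PLXNB3 differed by 1.24 (1201 and 959 against 473 and 432), PLXNB2 by 1.05 (5713 and 5099 against 2714 and 2501) and the co-receptor NRP1 by 1.05 (1158 and 1218 against 593 and 553). Both arrays of siPIR were above both of siCTR in each, as a call requires. PLXNB2 was 0.97 without siPIR replicate 1 and 0.99 without siCTR replicate 2, and NRP1 0.62 as a mean over probe sets. With an array left out NRP1 ran from 1.01 to 2.37, with 2.25 without siCTR replicate 2, and it was 2.31 without shared probe sets. PLXNB1 was close to the limit at 0.98, and the A and D plexins PLXNA2, PLXNA1 and PLXND1 were at 0.82, -0.18 and -0.19. In the list of guidance ligands and receptors 4 of 17 bright members were higher and 0 lower (median 0.25, and -0.19 without probe sets that may bind several transcripts). ROBO1, a receptor for Slit ligands, was the lowest at -0.67.

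The clustered beta protocadherins, adhesion proteins known from neurons, were looked at as a family after their values were seen. All 14 bright members, PCDHB18P (an annotated pseudogene) included, had a positive difference, from 0.08 (PCDHB4) to 1.46 (PCDHB14), with a median of 0.79. PCDHB14 read 502 and 496 units with siPIR, 166 and 189.7 with siCTR and 203 and 144 in NO, and PCDHB3, PCDHB11 and PCDHB18P were also called (1.05, 1.05 and 1.20). Of 17 members with a probe set 14 were bright, and a member can be bright through the siPIR pool alone. PCDHB14 was such a member, so the count of positive differences is not independent of the filter. The genes are close copies and 5 of the 14 rest on an _x_at probe set, which may bind several transcripts, so they are not 14 separate measurements. Left with unshared probe sets, PCDHB3 was at 0.06 and PCDHB18P at 0.01, both on probe sets below the brightness limit. Other adhesion genes on the higher side were FLRT3 (1.06; 4669 and 4724 against 2198 and 2299 units), NRCAM (1.10; 1.00 without siPIR replicate 2, just under the limit) and NECTIN2 (1.09; 0.20 as a mean over probe sets). Lower were RSU1, a partner of the integrin-linked kinase complex (-1.41; -0.36 without shared probe sets), and the catenin-like CTNNAL1 (-1.07). Classical cadherins and factors of the epithelial-mesenchymal transition were not called: CDH2 was at 0.28, VIM at 0.18, ZEB1 at -0.39, ZEB2 at 0.35 and SNAI2 at -0.33.

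The promoters of PLAUR and ENO2 (a glycolytic enzyme described below) are shown because both genes were higher and both hold the letters of an AP-1 site, the motif of the FOS and JUN factors. Each is the 250 bases before the transcript start in RefSeq's GRCh38.p14, 5' to 3' along the gene, with the match to TGANTCA in capitals. PLAUR lies at chr19:43670170-43670419, minus strand, with the match starting 186 bases before the start, and ENO2 at chr12:6914330-6914579, plus strand, with the match at 94 bases.

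PLAUR: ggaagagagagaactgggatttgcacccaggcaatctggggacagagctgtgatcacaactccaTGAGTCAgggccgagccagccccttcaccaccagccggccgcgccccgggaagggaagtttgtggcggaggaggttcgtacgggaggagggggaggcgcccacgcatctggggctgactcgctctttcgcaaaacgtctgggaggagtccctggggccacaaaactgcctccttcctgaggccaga
ENO2: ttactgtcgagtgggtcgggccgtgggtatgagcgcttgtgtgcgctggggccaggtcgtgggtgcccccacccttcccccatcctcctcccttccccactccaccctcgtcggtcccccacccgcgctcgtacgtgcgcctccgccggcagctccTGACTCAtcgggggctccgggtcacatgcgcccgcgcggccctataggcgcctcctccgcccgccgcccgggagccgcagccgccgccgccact

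Over windows of 250 bases before to 50 after the start, TGANTCA was found in 7 of 89 higher genes with a promoter in the table (7.87%), against 4.22% of 6901 bright genes and 7.76% of all 27305 promoters. The 5 others were AIM2, YOD1, SPHK1, CHST14 and ITGA5. The AP-1 factors themselves were not called (0 of 18 bright members, median 0.04, and -0.11 without shared probe sets, range -0.76 to 0.83). A match is a description of letters and not of binding.

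Secreted regulators were the next group on the higher side. ANGPTL4, which inhibits lipoprotein lipase, read 1848 and 1373 units with siPIR, 321 and 343 with siCTR and 254 and 195 in NO, a difference of 2.24 (1.98 to 2.51). The siPIR arrays lay above all control arrays but were less even than for other genes. IGFBP5, which binds insulin-like growth factors, read 16389 and 15060.2 units with siPIR, 6042 and 6126 with siCTR and 5874 and 5833 in NO (1.37). IGFBP4 was at 1.01 (0.92 without siPIR replicate 2), and the other 4 bright members of the family were not called, at 0.82 (IGFBP2), 0.34 (IGFBP6), -0.31 (IGFBP7) and -0.38 (IGFBP3). FGF1, a ligand of the fibroblast growth factor receptors, differed by 1.28 (1039 and 956 against 378 and 437 units), and FGFRL1, a receptor of that family without a kinase, by 1.05. FRZB, a secreted Wnt antagonist, was at 1.48 (565 and 521 against 207 and 177 units; 0.48 as a mean over probe sets). In the list of secreted cytokines and chemokines 3 of 15 bright members were higher and 0 lower (median 0.71). This list also holds other secreted factors, with ANGPTL4 its highest bright member and IGFBP3 its lowest. Inflammatory members were not called: CXCL8 was at 0.82, CXCL1 at 0.75, LIF at 0.60 and GDF15 at 0.68.

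Receptors and signal carriers stood on both sides. Higher were the kinase CSNK1E (1.36; 1628 and 1565 against 666 and 577 units), the serotonin receptor HTR2B (1.29; 3274 and 3395 against 1405 and 1323), the ubiquitin ligase CBLB, which turns off receptors (1.24), the TNF family ligand CD70 (1.05) and TNFRSF12A, the receptor of the ligand TWEAK (1.05). HTR2B was higher in NO than in siCTR (1809 and 2211 units), and its difference from NO was 0.74. Lower were TGFBR1, the type I receptor of TGF-beta, at 1189 and 1148 units with siPIR, 3991 and 4028 with siCTR and 3992 and 4132 in NO (-1.77), the small GTPase RAP2C (-1.93; 545 and 394 against 1665 and 1895), the receptor kinase AXL (-1.29; 885 and 792 against 2032 and 2085) and the Wnt receptors FZD6 (-1.15) and FZD7 (-1.06). TGFBR1 was the 1 member called of 25 bright genes of TGF-beta and BMP signalling, whose other members ran from -0.58 to 0.74, with TGFBR2 at 0.21 and SMAD2, SMAD3 and SMAD4 at 0.09, -0.17 and -0.31. As a mean over its probe sets TGFBR1 was at -0.69. AXL differed by -0.67 from NO, and siCTR exceeded NO by 0.62. FZD7 was at -0.98 without siCTR replicate 1.

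Of the genes for uptake of sugar and amino acids, 1 of 5 bright SLC2A genes and 1 of 13 bright amino acid transporters were higher, and 0 lower. SLC2A3, the glucose transporter GLUT3, read 3808 and 3786 units with siPIR, 810.2 and 813 with siCTR and 412 and 408 in NO, a difference of 2.22 from siCTR and 3.19 from NO. Its groups were far apart, and siCTR was itself above NO by 0.98. The more widespread glucose transporter SLC2A1 was at 0.41 and not called. ENO2, the neuronal enolase, read 5114 and 5440.3 units with siPIR, 1846 and 2063 with siCTR and 1484 and 1246 in NO (1.43). These 2 were the only called genes of 40 bright members of the list on glucose transport, glycolysis and hypoxia response; 37 of the 40 differences were positive and the median was 0.30, and the core enzymes LDHA, PGK1, GAPDH and ALDOA were at 0.08, 0.12, 0.21 and 0.22.

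SLC7A5, which carries large neutral amino acids, read 6178 and 5711 units with siPIR, 3015 and 2625 with siCTR and 2470.3 and 2071 in NO (1.08; 0.98 without siCTR replicate 2), and the chloride cotransporter relative SLC12A8 was at 1.63 (437 and 494 against 143 and 150.0 units). The other bright SLC7A genes were not called and ran from -0.47 to 0.25. Lower transport genes were KCNJ10, an inward-rectifier potassium channel, at 243 and 256 units with siPIR, 909.8 and 928 with siCTR and 899 and 938 in NO (-1.86), ATP1B1, the beta subunit of the sodium pump (-1.48; 735 and 804 against 2217 and 2083), and TMEM38B, a cation channel of the endoplasmic reticulum (-1.44, with another bright probe set at -0.73). The siPIR arrays of KCNJ10 lay below all 4 control arrays, which spanned 899 to 938 units. Of 17 bright genes of iron uptake, storage and export 1 was called: SLC11A2, which imports iron, was higher by 1.02 but turned to -0.38 without shared probe sets. Its 3 bright probe sets ran from 0.998 to 1.12, so the -0.38 comes from a probe set below the brightness limit.

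Genes of cholesterol synthesis were lower as far as they were called. SREBF2, the transcription factor that drives the pathway when sterol is scarce, read 283 and 351 units with siPIR, 978 and 962 with siCTR and 803 and 832 in NO, a difference of -1.60 (-1.77 to -1.44). HMGCS1, an early enzyme, read 212 and 264 units with siPIR, 755 and 662 with siCTR and 569 and 651 in NO (-1.56). ACAT2, which feeds it, differed by -1.26 (1132 and 994 against 2589.7 and 2504 units), the sterol carrier STARD4 by -1.23 (575 and 626 against 1321 and 1518), FDPS by -1.12 (1911 and 1944 against 4179 and 4233) and MSMO1, a later demethylation step, by -1.12 (1906 and 1734 against 3871 and 4042). Both siPIR arrays were below all control arrays in each of these 6 genes. They are 6 of 21 bright members of the list; 17 of the 21 differences were negative and the median was -0.48. Of the rest, IDI1 was at -0.76, SC5D at -0.62 and SQLE at -0.48, while LSS, an enzyme in the middle of the same route, was at 0.26. The sterol sensors SCAP, INSIG1 and INSIG2 were at 0.31, -0.49 and 0.65. Another bright probe set of SREBF2 differed by -1.86, the mean over all of its probe sets was -1.20, and as a mean over probe sets the list's median was -0.29.

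The upstream sequences of SREBF2 and HMGCS1, the lowest genes of the list, show the motifs searched: a sterol regulatory element (TCACCCCAC) and the CCAAT box (CCAAT), each on both strands and in capitals, in the 250 bases before the start in RefSeq's GRCh38.p14. SREBF2 lies at chr22:41832855-41833104, plus strand and HMGCS1 at chr5:43313413-43313662, minus strand.

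SREBF2: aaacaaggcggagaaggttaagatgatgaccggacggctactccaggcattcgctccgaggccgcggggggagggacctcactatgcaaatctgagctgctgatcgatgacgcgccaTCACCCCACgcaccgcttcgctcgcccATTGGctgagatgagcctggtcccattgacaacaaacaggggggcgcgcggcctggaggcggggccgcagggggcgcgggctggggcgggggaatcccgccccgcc
HMGCS1: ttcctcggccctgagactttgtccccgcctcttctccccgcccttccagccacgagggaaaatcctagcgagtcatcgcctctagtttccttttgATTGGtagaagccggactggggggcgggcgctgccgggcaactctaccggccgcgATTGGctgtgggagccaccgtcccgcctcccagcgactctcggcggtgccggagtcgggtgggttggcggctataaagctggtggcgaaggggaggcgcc

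In SREBF2 the sterol element lies upstream of the CCAAT box, which starts 106 bases before the transcript start, and HMGCS1 holds 2 CCAAT boxes and no match to these letters of the sterol element. Counting 50 bases past the start too, the sterol element was found in 2 of 119 lower genes outside cell division (1.68%), SREBF2 and PPIH, and in 0.377% of bright genes and 0.425% of all promoters. A CCAAT box was present in 47.1% of the lower genes outside cell division against 37.8% of bright genes and 35.7% of all promoters.

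Other genes of lipid metabolism stood on both sides. ECI1, an isomerase of mitochondrial beta-oxidation, read 238 and 217 units with siPIR, 938 and 939 with siCTR and 1203 and 1163 in NO (-2.02). The lysophosphatidic acid receptor LPAR3 differed by -1.69 (410.4 and 324 against 1284 and 1097 units; -0.98 as a mean over probe sets), the acyltransferase LPGAT1 by -1.32 (919.5 and 984 against 2403 and 2349.7) and CROT, a peroxisomal acyl transferase, by -1.34 (-0.28 as a mean over probe sets). Another bright probe set of LPGAT1 differed by -0.35. On the higher side PLA1A, a phospholipase of phosphatidylserine, read 6289 and 6357 units with siPIR, 2300.3 and 2268 with siCTR and 3635 and 3231 in NO (1.47); its NO arrays lay between the siRNA pools. SPHK1, which makes sphingosine-1-phosphate, was higher by 1.12 (1862 and 1702 against 854 and 778). In the list of fatty acid synthesis and desaturation 3 of 26 bright members were lower and 0 higher (median -0.04, and 0.0098 without siCTR replicate 1). These were SCD (-1.0014), GPAM (-1.07) and ACSL4 (-1.06), each of which lost its call under 2 or more alternatives, while FASN, ACLY and SREBF1 were at 0.04, 0.02 and -0.07.

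Sugar chains of proteoglycans are built on xylose, and the lowest gene of glycan synthesis was UXS1, which makes the xylose donor. UXS1 read 474 and 658 units with siPIR, 2609 and 2917 with siCTR and 3068 and 2816 in NO, a difference of -2.29 (-2.61 to -1.98). The xylosyltransferase XYLT1, which starts the chain, was lower too (-1.24; 1341 and 1362 against 3146 and 3238 units), on a probe set that may bind several transcripts, and was at -0.02 without such probe sets. XYLT2 was at -0.14 and the linker enzymes B4GALT7, B3GALT6 and B3GAT3 at 0.50, 0.56 and 0.67. At the far end of the chain CHPF2, of chondroitin polymerisation, was higher by 1.19 (2361 and 2397 against 1054 and 1025), and the dermatan sulfotransferase CHST14 by 1.16 (0.88 without siCTR replicate 2). The list thus held 2 higher and 2 lower genes of 31 bright ones, with a median of 0.11.

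B4GALT4, a galactosyltransferase, read 201 and 238 units with siPIR, 1122 and 999 with siCTR and 939.5 and 1045 in NO (-2.25), and the other bright members of its family ran from -0.83 (B4GALT6) to 0.79 (B4GALT3). It was the 1 gene called of 24 bright members of the list of gangliosides and galactosyltransferases. TMTC3 (-1.20) and TMTC4 (-1.32), which add mannose to cadherins, were lower, and TMTC1 and TMTC2 were at 0.73 and 0.76. TMTC4 was at -0.67 as a mean over probe sets.

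In vesicle traffic the lowest genes were single members of complexes whose other bright members were not called. COMMD1 belongs to a ring of COMMD proteins that sorts endosomal cargo and is also known for copper handling and NF-kB turnover. It read 728 and 779.6 units with siPIR, 4176 and 3981 with siCTR and 3855 and 3855 in NO, a difference of -2.43 (-2.51 to -2.34). The 9 other COMMD genes, all bright, ran from -0.74 (COMMD10) to 0.54 (COMMD9), and the partners CCDC22, VPS35L and VPS26C were at 0.14, -0.11 and -0.36.

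AP3S1 is the small subunit of the AP-3 adaptor, which carries cargo to lysosomes and melanosomes. It read 1582 and 1424 units with siPIR, 7559.6 and 7220.3 with siCTR and 7432 and 7509 in NO (-2.29; -2.40 to -2.19). The other bright subunits of AP-3 were at -0.89 (AP3D1), -0.47 (AP3M1), -0.16 (AP3B1) and 0.40 (AP3M2), and of 25 bright genes of AP-3, Hermansky-Pudlak and melanosome traffic AP3S1 was the 1 called.

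VMA21, an assembly factor of the proton pump of lysosomes, read 1380.0 and 1274 units with siPIR, 4634 and 4828 with siCTR and 4311 and 4072 in NO (-1.83; -1.09 as a mean over probe sets). SAR1A, the GTPase that starts COPII coats, differed by -1.41 (1383 and 1324 against 3349 and 3867 units) while SAR1B was at -0.26, and SNTB2, a syntrophin, by -1.76 (425 and 433 against 1433 and 1499; -0.77 as a mean over probe sets). A further bright probe set of SAR1A was at -0.77. Higher were GOLGA7B, which assists palmitoylation (1.59; 699 and 680.3 against 252 and 200.5), TBC1D19 (1.29; 1175 and 1211 against 492 and 475), the vault protein MVP (1.20) and the neonatal Fc receptor FCGRT (1.46). The related secretion factors CADPS and CADPS2, which prime dense-core vesicles, were called in opposite directions: CADPS read 5017 and 5243 against 2104 and 2353 (1.20) and CADPS2 372 and 299 against 769.7 and 748 (-1.17), siPIR against siCTR. CADPS was at 0.77 as a mean over probe sets. The hydrolases and autophagy genes of the lysosome list were not called (0 of 31 bright, median 0.26).

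Of the genes of stress and cell death, BNIP3L had the largest difference. BNIP3L (NIX) is a mitochondrial receptor for autophagy, and read 1837 and 1740.5 units with siPIR, 8558 and 7923 with siCTR and 7784 and 7404 in NO, a difference of -2.20 (-2.29 to -2.11; -1.28 as a mean over probe sets). The other bright probe set of BNIP3L differed by only -0.36. Its relative BNIP3 was at 0.23, and the 19 other bright members of the BCL2 and caspase list were not called, from -0.41 (CASP6) to 0.84 (BAX). API5, an inhibitor of apoptosis, was at -1.57 (-0.84 as a mean over probe sets). Higher were DDIT4L, an inhibitor of mTOR signalling (1.59; 824 and 682 against 233 and 259.8 units), TP53INP1 (1.27; 1534 and 1490.2 against 594 and 656), SESN2 (1.14; 947 and 894 against 429 and 402), CDKN1A, which encodes p21 (1.10; 9040.2 and 9077 against 4200.1 and 4228), and PPP1R15A, which restarts translation after stress (1.02). TP53INP1, SESN2 and CDKN1A were the called members of 25 bright p53 targets, of which 22 had a positive difference (median 0.37, and 0.21 without shared probe sets). TP53INP1 was at 0.67 as a mean over probe sets and PPP1R15A at 0.96 without siPIR replicate 1.

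Histone genes held the largest increase and components of the nuclear envelope several decreases. H2AC6, an H2A gene, read 672 and 654 units with siPIR, 80.8 and 107 with siCTR and 122 and 80.1 in NO, a difference of 2.76 (2.55 to 2.97). H2BC21 read 738 and 679.5 units with siPIR, 169.8 and 183 with siCTR and 259.9 and 202 in NO (1.97), and H2BC12 2441 and 2546 against 1194 and 1056 units (1.15). In H2AC6 and H2BC21 the control arrays were below the brightness limit and the siPIR arrays above it. Of 50 histone genes with a probe set 9 were bright, 3 of them higher and 0 lower, and the other 6 ran from -0.89 (H2BC9) to 0.85 (H2AC25). Histone genes are near copies, 4 of the 9 rest on _x_at and 3 on _s_at probe sets, H2AC6 and H2BC21 among the latter, and which transcript a probe set reads is uncertain.

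LMNB1, lamin B1 of the nuclear lamina, read 302 and 326 units with siPIR, 1422 and 1118 with siCTR and 1439.7 and 1486 in NO (-1.99), while LMNA was at 0.13 and LMNB2 at -0.46. The inner membrane proteins SUN2 (-1.67; 381 and 426 against 1327 and 1256 units), TMPO (-1.25; 1615 and 1605 against 3646 and 4020.3) and LBR (-1.03) were lower, LBR falling just short at -0.99 without siPIR replicate 1. KPNA2, an import receptor, was lower (-1.06; 6106 and 5941 against 12164 and 12900.2) and was the 1 gene called of 39 in the list of nuclear pores and transport, although 33 of the 39 differences were negative (median -0.45). The chromatin proteins HMGB2 (-1.80; 3155 and 3595 against 11717 and 11771) and HMGB3 (-1.24), the methyltransferases EZH2 (-1.28) and SUV39H2 (-1.18; -0.87 as a mean over probe sets) and the helicase RUVBL1 (-1.29) were lower, and HMGB1 was at -0.19. Genes of this class are also known to follow the cell cycle, so the border with cell division is a matter of assignment.

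RNA processing and translation held 15 lower genes and 0 higher ones. RAVER2, a splicing regulator that binds PTBP1, read 83.9 and 148 units with siPIR, 555 and 541 with siCTR and 589 and 620.4 in NO (-2.24; -2.65 to -1.84). FAM98B, of the tRNA ligase complex, read 877 and 774 units with siPIR, 2633 and 2562 with siCTR and 2704 and 2756 in NO (-1.65). The siPIR arrays of both lay below all controls, those of RAVER2 being uneven. The exosome subunits EXOSC9 (-1.56; 400.5 and 320.1 against 996 and 1139.6 units) and EXOSC8 (-1.12; 1383 and 1448 against 3158 and 2995) were lower, and the 8 others, all bright, ran from -0.60 (EXOSC2) to 0.09 (EXOSC4). RRP1B, of the nucleolus, differed by -1.43 (1484 and 1459 against 3870.2 and 4082) and the spliceosomal protein SNRPG by -1.21 (5752 and 6019.8 against 13419.7 and 13853). By contrast 0 of 34 bright cytosolic ribosomal proteins, 0 of 30 proteasome subunits, 0 of 29 aminoacyl-tRNA synthetases and 0 of 45 oxidative phosphorylation genes were called, with medians of 0.08, 0.05, 0.05 and -0.02; the first turned to -0.045 after quantile normalization and the second to -0.045 as a mean over probe sets.

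Of the transcription regulators, TAF9B, a subunit of TFIID-type complexes, was the lowest at 230.5 and 192 units with siPIR, 858 and 922 with siCTR and 979 and 984 in NO (-2.05), but turned to 0.19 without shared probe sets. Its 2 bright probe sets were at -2.05 and -1.64, so the 0.19 comes from a probe set below the brightness limit. GTF2F2, a subunit of TFIIF, read 389 and 439.6 units with siPIR, 1047 and 1069 with siCTR and 1548 and 1429.6 in NO (-1.34). C1D, a co-repressor, differed by -1.34 (1162 and 1277 against 2998 and 3194 units), SERTAD4 by -1.60 (202 and 154 against 620.5 and 479.9) and ETS2 by -1.24 (-0.51 as a mean over probe sets). GTF2F2 is an example of a gene also lower in siCTR than in NO (-0.49). The related calmodulin-binding factors CAMTA1 (-1.06; 2049.8 and 1682 against 3807 and 3974) and CAMTA2 (1.06; 636 and 666 against 272 and 354; 0.87 without siCTR replicate 1) were called in opposite directions. The NFI factors, known partners of pirin, were not called: NFIA, NFIB, NFIC and NFIX were at -0.69, 0.32, 0.19 and 0.13. The subunits and inhibitors of NF-kB gave 0 of 12 (median 0.10, and -0.048 as a mean over probe sets). Over all bright genes 5.33% were called, so the lack of a call in groups this small says little about them.

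In the cytoskeleton class the calcium-binding proteins S100A16 (1.41; 3767 and 3889 against 1429 and 1452 units) and S100A6 (1.16; 25938 and 25729 against 12829 and 10352) were higher, and all 6 bright S100A genes had a positive difference, from 0.23 (S100A10). S100A6 differed from NO by 0.56 only, its NO arrays reading 17382 and 17718. AIF1L, an actin-bundling protein, read 183 and 185 units with siPIR, 859 and 785 with siCTR and 762 and 774 in NO (-2.13). PLS3, another actin bundler, read 4908 and 5253 units with siPIR, 13473 and 13506 with siCTR and 14068 and 14367 in NO (-1.41). In both the siPIR arrays lay below all controls.

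Genes best known from neurons were higher in 5 cases and lower in 1 (SHISAL1, -1.07, and -0.89 without siCTR replicate 2). GPR158, a receptor found at synapses, read 473 and 528 units with siPIR, 125 and 144 with siCTR and 171 and 126 in NO (1.85). The pentraxin NPTX1, secreted at synapses, read 4443 and 4745 units with siPIR, 1590.2 and 1961 with siCTR and 2761 and 2679 in NO (1.38), with NO between the siRNA pools. DLG3, a scaffold (1.34; 576 and 472 against 174 and 235), the glutamate receptor GRIA4 (1.33; 0.50 as a mean over probe sets) and the granin SCG2 (1.15; 773 and 783 against 330.4 and 365) made up the rest. GPR158, DLG3, GRIA4 and SCG2 were below the brightness limit with siCTR, and SHISAL1 with siPIR. Those genes entered through the pool in which they were higher, so their counts are no support for a direction. NPTX1 was bright in both pools. In the list of neural and ion transport genes, which is made up differently, 4 of 18 bright members were higher and 2 lower, 9 differences were positive and 9 negative, and the median was 0.09 (-0.014 without siPIR replicate 2, and 0.33 with the brightness limit at the median of all values).

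Of the remaining metabolic genes, the acetyltransferase relative NAT14 was higher at 2457 and 3059 units with siPIR, 759 and 902 with siCTR and 1380.2 and 1327 in NO (1.72), with NO between the siRNA pools. IMPA2, which frees inositol, differed by -1.40 (375 and 349.7 against 949 and 977 units), PHGDH, the first step of serine synthesis, by -1.17 (1594 and 1724 against 3809 and 3665) and the carbonic anhydrase CA13 by -1.79 (183 and 121 against 516 and 539.6), all lower with siPIR. PHGDH was the 1 gene called of 21 bright members of serine, folate and amino acid synthesis, with PSAT1 and PSPH at -0.17 and 0.30.

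Interferon-stimulated genes gave 2 higher and 1 lower of 25 bright members. IFIT1 was at 1.15 (1518 and 1316 against 611 and 660.4) and IFI6 at 1.04 (0.87 without siCTR replicate 1), and PSMB9, a subunit of the immunoproteasome, was lower at 472 and 428 units with siPIR, 1134 and 1201 with siCTR and 1057 and 1150.4 in NO (-1.37). Against NO, IFIT1 differed by 0.89 and IFI6 by 0.57, and neither was called there. The cytosolic DNA sensor AIM2 was at 1.05 (531 and 494 against 238 and 252), and just below the limit without siPIR replicate 1. The summed level of 6 leukocyte markers, none of them bright, was 456 and 529.9 (siPIR) against 272 and 378 (siCTR), and their part was not tested. Targets of NRF2 (0 of 29) held no call, and pigmentation genes gave 1 higher (SLC7A5) and 1 lower (the kinase CDK2, -1.03, and -0.75 as a mean over probe sets) of 30.

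Among non-coding RNAs, CRNDE, a long RNA of dividing and neural cells, read 1221 and 1598 units with siPIR, 5180.1 and 5754 with siCTR and 5647 and 6067 in NO (-1.96), and OIP5-AS1, a cytoplasmic long RNA, differed by -1.24 (2434 and 2076 against 5139.5 and 5516). Higher were SUGCT-AS1 (1.84; 728 and 821 against 233 and 193) and LINC00520 (1.16; 8394 and 8619.8 against 3856 and 3744). In 19 called genes the function was not assigned, 9 higher and 10 lower, among them TMEM255B (1.59; 1046 and 832 against 306 and 308) and SIMC1 (-1.75; 244 and 180.0 against 738 and 694).

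**Figure D4:**
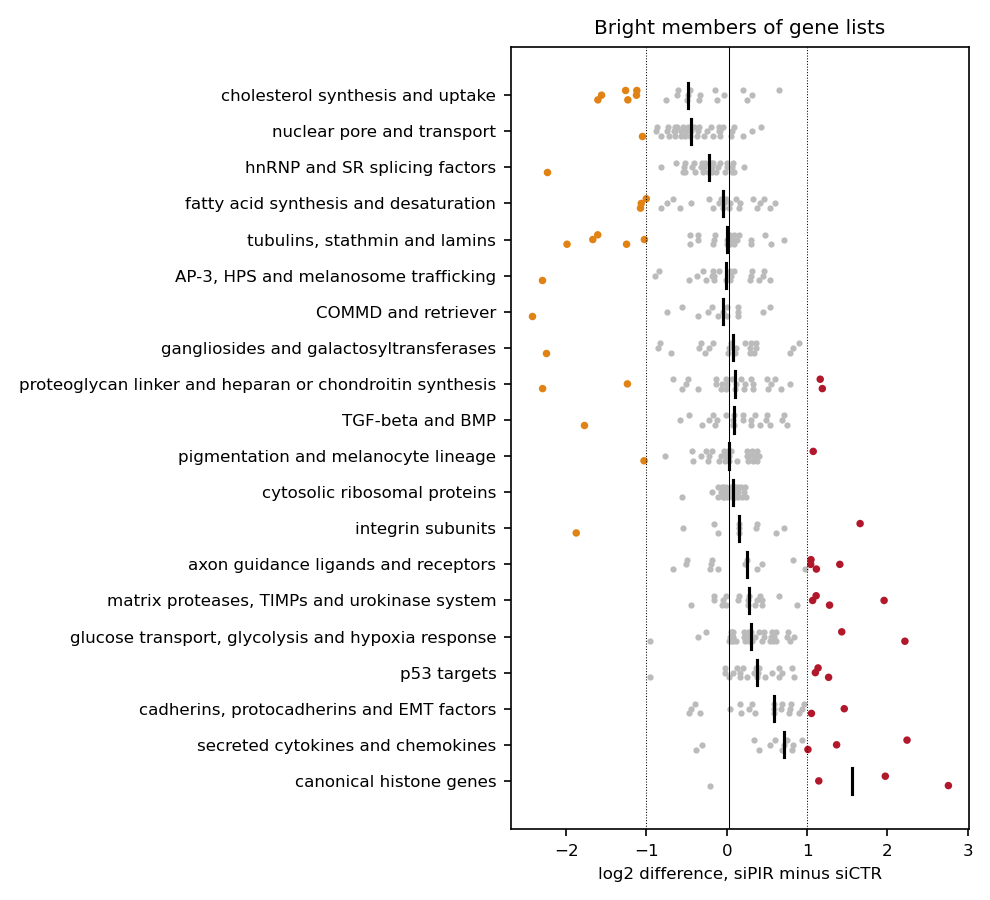
Log2 difference (siPIR minus siCTR) of each bright member of 20 gene lists; coloured points are called genes, grey points are not, the black bar is the list's median, and the vertical lines mark 0.03 (the median of all bright genes) and a 2-fold difference in either direction. Single members such as COMMD1 (-2.43), AP3S1 (-2.29), B4GALT4 (-2.25) and TGFBR1 (-1.77) lie far from the rest of their lists, whereas cholesterol genes (median -0.48) and nuclear pore genes (-0.45) have medians away from that of all bright genes.

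Cell division is given briefly. All 27 bright genes of the list of mitotic kinesins and cytokinesis were lower (median -1.66), with 24 of 29 mitotic kinases and checkpoint genes, 29 of 31 centromere and condensin genes, and 22 of 41 genes of origins and forks; none was higher. Of the 22 bright genes of nucleotide synthesis 5 were lower (median -0.39, and -0.69 without shared probe sets). DEPDC1, a gene of mitotic cells, read 361 and 327 units with siPIR, 2267 and 2108 with siCTR and 1964 and 1979 in NO (-2.65), and the spindle motor KIF11 469.7 and 412 units with siPIR, 1886 and 1938 with siCTR and 2059 and 2019.5 in NO (-2.11). Their siPIR arrays lay below all controls.

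The upstream sequences of DEPDC1 and KIF11 are shown because they hold, in capitals, both a CCAAT box (CCAAT) and a cell cycle homology region (CHR, TTTGAA), sought on both strands; complexes that repress cell cycle genes are known to bind the latter. They are the 250 bases before the start in RefSeq's GRCh38.p14, DEPDC1 at chr1:68497083-68497332, minus strand and KIF11 at chr10:92592880-92593129, plus strand. The CHR starts 27 and 28 bases before the transcript start and the CCAAT box 52 and 53 bases before it, so the 2 elements stand at nearly the same place in both genes. This placing was not general among the lower genes of cell division looked at. In others with both motifs the nearest CHR lay at 8 (PARPBP), 22 (HMMR), 109 (DLGAP5), 153 (UBE2T), 161 (CDK1) and 247 bases (SPC25). Several more, such as SHCBP1, NCAPH and BUB1, held no CHR there.

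DEPDC1: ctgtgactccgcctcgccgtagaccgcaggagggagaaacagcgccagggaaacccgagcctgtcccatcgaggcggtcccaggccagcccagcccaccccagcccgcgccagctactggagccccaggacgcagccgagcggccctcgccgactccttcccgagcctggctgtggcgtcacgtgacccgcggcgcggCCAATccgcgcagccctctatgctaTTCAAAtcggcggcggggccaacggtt
KIF11: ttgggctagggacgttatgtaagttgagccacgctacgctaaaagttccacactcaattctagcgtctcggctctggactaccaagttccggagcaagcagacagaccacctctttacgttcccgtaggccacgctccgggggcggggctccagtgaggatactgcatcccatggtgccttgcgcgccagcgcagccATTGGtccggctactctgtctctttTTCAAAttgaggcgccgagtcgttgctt

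In windows that run 50 bases past the start, the CHR letters were present in 45.8% of 144 lower genes of cell division, in 10.9% of 119 lower genes outside it, in 6.74% of 89 higher genes and in 9.91% of bright genes (15.4% of all 27305 promoters). The share outside cell division was thus near that of all bright genes. The E2F letters (TTTGGCGC or TTTCCCGC) were in 15.3%, 3.36%, 2.25% and 3.90% of these groups (2.31% of all promoters). Other motifs searched were the E-box CACGTG, the ATF4 composite element TGATGNAAT, the NF-kB site GGANTTTCC and the antioxidant response element TGACNNNGC, on both strands; an AP-1 match can overlap the last. The antioxidant letters were in 19.1% of higher genes and 15.98% of bright genes, and the NF-kB letters in 2.25% and 1.55%; over all promoters these shares were 13.6% and 1.64%. The E-box was in 6.74% of higher and 10.8% of bright genes (7.43% of all promoters), and the ATF4 element in 1.12% and 0.522% (1.02%).

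**Figure D5:**
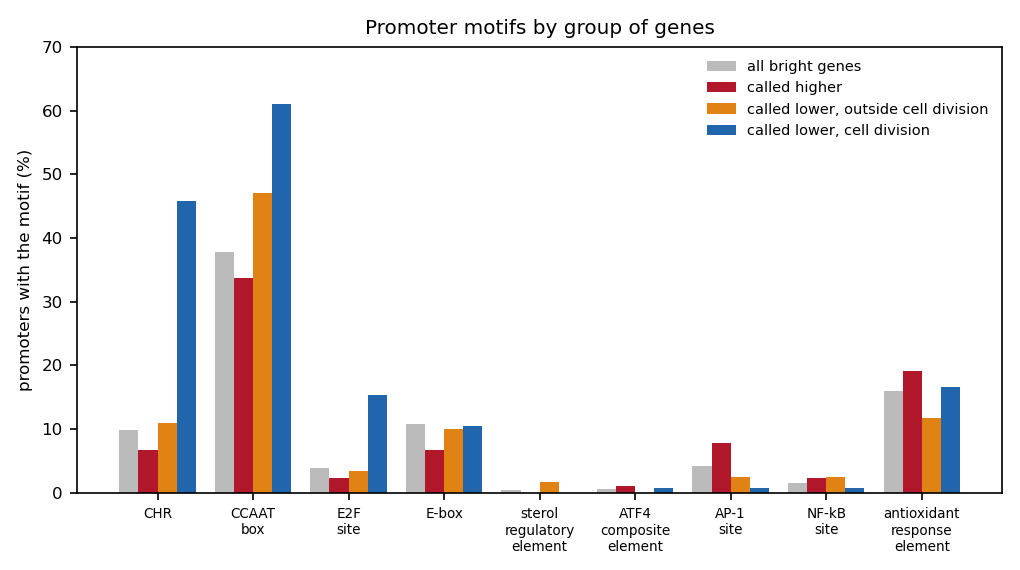
Percentage of promoters (250 bases before to 50 after the start) that hold each of 9 motifs, for all bright genes, called higher genes, and called lower genes outside and within cell division. The CHR stands at 45.8% in lower genes of cell division and at 10.9% in lower genes of other functions, against 9.91% of all bright genes.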

How the data were processed

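Total RNA of WM-266.4 cells was measured on Affymetrix HG-U133 Plus 2 arrays. The authors deposited linear intensity per probe set, computed with GCOS, the Affymetrix software, per the submitters' processing notes, which name no version. On each array the mean without the lowest and highest 2% of values was 500.1, so only relative levels can be compared. All 6 columns were matched to samples, and 0 were left over.

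Differences are of log2(value + 5.4), where 5.4 is the 10th percentile of the signals; this understates differences of dim genes. An annotation paired 41097 of 54675 probe sets with 1 gene and 1801 with several, and 11777 had no entry. The probe set with the highest mean over the 6 arrays stood for each gene. Those ending in _x_at or _s_at may bind several transcripts ("shared" in the text), and 23 called genes rest on an _x_at set. Without shared probe sets, or as a mean over probe sets, a gene's value can rest on probe sets below the brightness limit. Of 136 called genes with more than 1 bright probe set, all sets pointed the same way in 131, and all were at least 2-fold in 84. The arrays of a pool were averaged. For promoters, the start listed first for a gene was used.

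The genes named are PIR, the 25 highest and 25 lowest outside the cell cycle lists, and up to 8 called genes per direction in each function class and list. Members without a call, and CADPS2, CAMTA1, CBLB, CD70, EXOSC8, FGFRL1, FLRT3, PCDHB11, PPIH and TNFRSF12A, were chosen after their values were seen. The gene lists, function classes and limits were all chosen with earlier results of these data known. Alternatives changed the pseudocount, probe sets, normalization or brightness limit, or left out an array. The sequences of the duplexes were not used here. Python 3.11.15 with pandas 2.3.3 and NumPy 2.4.6 was used.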

Additional observations from a re-analysis of the deposited data

How the results depend on the processing

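The count of higher genes was 460 and of lower genes 538 with the brightness limit at the median of all values, and 35 and 147 with it at the 90th percentile. Leaving out 1 array gave 115 to 129 higher and 324 to 337 lower genes; 90 to 100 of the 113 higher and 295 to 307 of the 322 lower calls were kept. PIR was at -5.03 with 4 times the pseudocount, and between -5.11 and -5.07 with an array left out. As a mean over probe sets 101 genes were higher and 250 lower, and without _x_at and _s_at probe sets 80 and 223, from fewer genes (6815 and 5553). Of 283 named genes besides PIR, the difference of 175 kept its call under those of the 9 alternatives other than a brightness limit in which it had a value, and 108 lost it under at least 1. With the limit at the 90th percentile 166 of the 283 were no longer bright, and 79 both kept their call and stayed bright. Directions turned for FUBP3 (0.15), SLCO4A1 (0.021), NHLRC2 (0.22) and NR2F1-AS1 (-0.020) as a mean over probe sets, and for TAF9B (0.19), NAV2 (0.59), PALLD (0.092), ANXA11 (0.99), SLC11A2 (-0.38) and LIMK1 (-0.024) without _x_at and _s_at probe sets. In all of these genes every bright probe set had the direction of the call, so the turns rest on probe sets below the brightness limit. With an array left out MINDY1 ran from -0.28 to 1.38 and BAIAP2-DT from -0.076 to 1.61; MINDY1 turned without either siPIR array (-0.023 without replicate 1), as another probe set was then the brightest, and BAIAP2-DT without siPIR replicate 2. No paired analysis was possible because each group is 1 RNA pool on 2 repeat arrays, whose numbers pair nothing. The single RNA pool per group limits the precision, and repeat arrays of it do not show how separately prepared pools differ.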
